A study of Mus musculus with 6 samples.

Results

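The route from extracellular ATP to adenosine was described in CD4+CD25+ regulatory T cells (Treg) of the mouse through 9 genes. They were the ectoenzymes Entpd1 and Nt5e, the adenosine receptors Adora2a and Adora2b, and the ATP receptor P2rx7. The others were Ada, Adk and Slc29a1, whose proteins remove adenosine, and the surface peptidase Dpp4. Every probe set whose platform annotation names 1 of these genes and no other was taken. That gave 12 probe sets of 7 genes, out of 22626 probe sets tested and 12393 genes with a probe set of their own. Adora2a and Adora2b had 0 such probe sets and were not analysed here. Of the 7 genes, 4 had a single probe set, Entpd1 and Dpp4 had 2 each and Adk had 4.

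RNA came from Treg of HDAC6 knockout mice (3 arrays) and of wild-type mice (3 arrays), which the design text compares. HDAC6 is a deacetylase found mainly in the cytoplasm. Cells of both genotypes had been isolated magnetically as CD4+CD25+, and no treatment or time point is named. The labels give the strain, C57BL6, for the wild type only, and the age and sex of the mice, the allele and whether a sample was 1 mouse or a pool are not given in the sources used here. The samples are described as independent, without saying whether each was a separate animal, so p-values measure the spread between these samples.

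Treg carry on their surface the machinery to turn ATP, a danger signal released by stressed and dying cells, into adenosine, which restrains effector T cells. CD39 (Entpd1) cuts ATP and ADP to AMP, and CD73 (Nt5e) cuts AMP to adenosine. Adenosine then acts on the A2 receptors, which raise cAMP, or it is taken up by the transporter ENT1 (Slc29a1), deaminated to inosine by adenosine deaminase (Ada), or phosphorylated back to AMP by adenosine kinase (Adk). CD26 (Dpp4) is a surface peptidase that anchors adenosine deaminase in humans, and the P2X7 channel (P2rx7) senses ATP itself and can kill mouse Treg when ATP is high.

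Values are RMA levels on the log2 scale, where a difference of 1 is a doubling, and all differences are knockout minus wild type with their standard error (SE). The arrays had medians from 6.22 to 6.27 and lower quartiles from 4.14 to 4.25. Hdac6 was lower in each knockout array, at a mean of 7.68 against 8.40 (SD 0.16 in both genotypes, n = 3; adjusted p = 0.0875 by limma with Benjamini-Hochberg adjustment). The sources used here do not place its probe set against the deletion, so it does not check the labels. The Treg markers were present in every array: Foxp3 read 10.18 to 10.40, Il2ra (CD25) 9.28 to 9.64 and Cd4 9.63 to 10.01, where the upper quartiles of the arrays were 8.35 to 8.40. Of the 7 Treg markers 0 passed the threshold of limma's test, against 32 of all 12393 genes. Of the same 7, 0 had an unadjusted p under 0.05, against 11.2% of all genes. Counts over so few genes cannot show that Treg content was equal between genotypes. Transcripts of other cells were also present in every array, with the B cell receptor component Cd79a at 7.76 to 8.46 and the IgA constant region Igha at 12.18 to 14.36.

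Both ectoenzymes of the cascade read higher in the knockout, while Ada, Adk and Dpp4 differed by less than the spread between arrays. By the brightest probe set of each gene the difference was 0.76 (SE 0.17) for Nt5e and 0.44 (SE 0.12) for Entpd1. It was -0.01 for Ada, -0.03 for Adk and -0.01 for Dpp4. Slc29a1 and P2rx7 differed by 0.21 and 0.24. None of the 12 probe sets passed an adjusted p of 0.05 over all probe sets, where limma called 44 of 22626 (0.194%), and 3 of the 12 had an unadjusted p under 0.05, against 10.6% of all probe sets.

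Nt5e, the enzyme that makes adenosine, had 1 probe set (1422974_at), and the knockout arrays lay above all wild-type arrays. It read 7.44, 7.17 and 6.98 in knockout replicates 1, 2 and 3. It read 6.49, 6.13 and 6.69 in wild-type replicates 1, 2 and 3. The lowest knockout array was 0.29 above the highest wild-type array, a gap smaller than the range within the knockout (0.46) or the wild type (0.56). The difference of 0.76 (95% interval 0.36 to 1.16) is 1.69-fold on the linear scale. By limma's test it ranked 363 of 22626 probe sets by p, with an adjusted p of 0.174. With the spread estimated for this probe set a difference of 1.34 would have been needed to pass. Leaving out 1 array at a time gave 0.61 to 0.88.

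Entpd1, the enzyme that starts the cascade, had 2 probe sets, both designed from the same sequence record per the platform annotation. The brighter one (1423326_at) read 6.89, 6.77 and 6.67 in the knockout arrays, against 6.19, 6.26 and 6.56 in the wild type. The genotypes did not overlap, with wild-type replicate 3 only 0.11 below the lowest knockout array. The difference of 0.44 (95% interval 0.17 to 0.71), or 1.36-fold, had an adjusted p of 0.243 by limma. The dimmer one (1450939_at) read 6.44, 5.95 and 6.30 in the knockout arrays, against 5.86, 5.81 and 6.35 in the wild type. Here wild-type replicate 3 lay among the knockout arrays, and the difference of 0.23 (95% interval -0.20 to 0.65, limma adjusted p = 0.709) was within the spread between arrays. Leaving out 1 array gave 0.12 (knockout replicate 1) to 0.40 (wild-type replicate 3), with 0.13 for wild-type replicate 2 and 0.37 for knockout replicate 2. For Nt5e and for both Entpd1 probe sets, knockout replicate 1 was the highest array and wild-type replicate 3 the highest of the wild type.

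**Figure D1:**
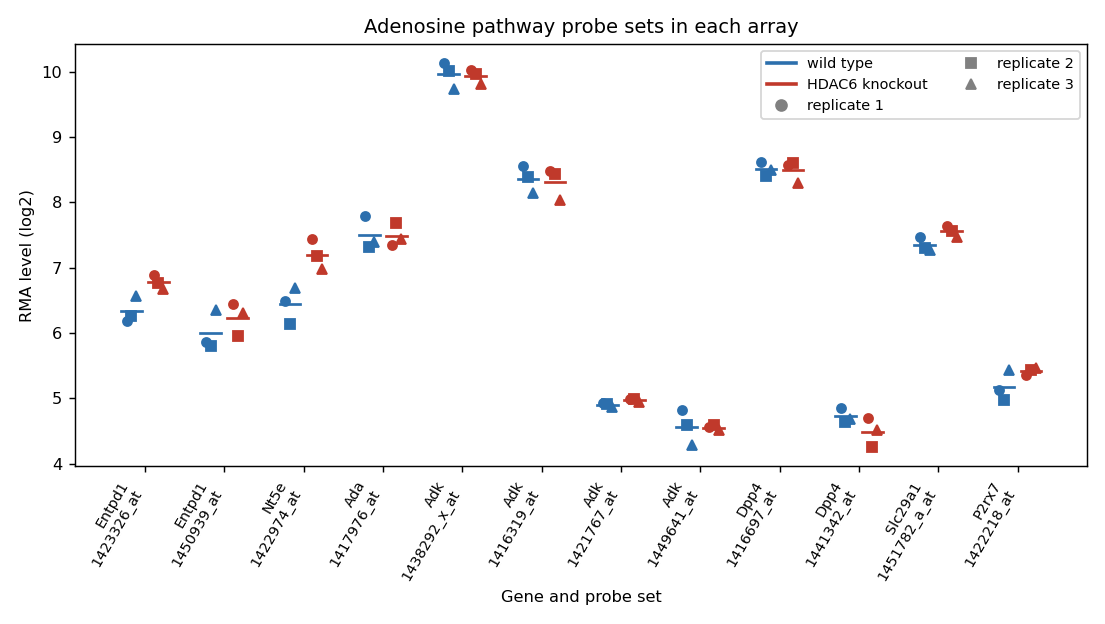
RMA level (log2, y axis) of each of the 12 probe sets (x axis) in the 3 wild-type arrays (blue) and 3 HDAC6 knockout arrays (red); marker shapes give the replicate number and bars the group means. The knockout arrays of Nt5e (6.98 to 7.44) and of the brighter Entpd1 probe set (6.67 to 6.89) lie above their wild-type arrays, and the Ada, Dpp4 and brighter Adk probe sets overlap.

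The start regions of both ectoenzyme genes are shown because they were the pair with the largest differences among the members. They were taken from RefSeq (build GRCm38.p6), from 250 bases before to 50 bases after each annotated start, and 8 of the 9 genes matched the table by symbol, with 18 starts in all. Capitals mark TGACG, the short core of the cAMP response element, and GCGTG, the core bound by the dioxin receptor AHR, on either strand (CGTCA is TGACG read on the other strand).
Nt5e, chr9:88327359-88327658, plus strand: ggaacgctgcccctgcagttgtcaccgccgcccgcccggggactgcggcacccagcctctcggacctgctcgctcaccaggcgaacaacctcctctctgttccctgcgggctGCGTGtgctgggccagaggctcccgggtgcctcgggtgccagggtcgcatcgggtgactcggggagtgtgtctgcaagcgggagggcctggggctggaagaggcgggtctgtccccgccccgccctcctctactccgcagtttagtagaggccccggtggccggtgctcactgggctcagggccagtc
Entpd1, upstream start, chr19:40612116-40612415, plus strand: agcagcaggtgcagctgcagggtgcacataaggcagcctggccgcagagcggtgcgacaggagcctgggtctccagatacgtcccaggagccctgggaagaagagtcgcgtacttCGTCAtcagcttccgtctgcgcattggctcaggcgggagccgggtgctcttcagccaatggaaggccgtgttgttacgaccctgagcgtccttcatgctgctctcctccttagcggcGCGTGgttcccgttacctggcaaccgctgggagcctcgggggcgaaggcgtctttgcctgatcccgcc
Entpd1, downstream start, chr19:40659520-40659819, plus strand: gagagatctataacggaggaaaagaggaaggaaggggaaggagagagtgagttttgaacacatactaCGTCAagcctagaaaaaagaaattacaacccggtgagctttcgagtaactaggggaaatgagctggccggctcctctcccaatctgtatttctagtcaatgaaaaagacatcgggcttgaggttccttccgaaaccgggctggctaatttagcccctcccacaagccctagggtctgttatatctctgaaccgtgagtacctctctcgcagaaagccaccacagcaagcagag

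A match was found for TGACG at -135 and -183 from the upstream and downstream Entpd1 starts and for GCGTG at -18 from the upstream Entpd1 start and -138 from the Nt5e start. Of all 32851 promoters of this length in the table, 20.8% hold TGACG and 32.4% hold GCGTG. The Nt5e region also holds 4 matches of the GC box GGGCGG on the other strand, at -223, -219, -24 and -19, each adjoining pair overlapping; 35.7% of all promoters hold 1. The other 5 motifs searched on both strands had no match in these 3 windows. They were the forkhead core TGTTTAC (3.65% of all promoters), the hypoxia core ACGTG, which can overlap TGACG (19.6%), the heat shock core GAANNTTC (7.86%), the STAT site TTCNNNGAA (8.30%) and the AP-1 site TGANTCA (7.81%). These letters are a description of the windows and not of bound sites, and the array cannot tell which Entpd1 start was used.

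Among the proteins that remove adenosine, Slc29a1 had the smallest p. ENT1, its product, carries adenosine across the plasma membrane in both directions. Its probe set (1451782_a_at) read 7.64, 7.57 and 7.47 in the knockout arrays, against 7.47, 7.30 and 7.27 in the wild type. The lowest knockout array and the highest wild-type array overlapped by 0.002, and the other wild-type arrays were lower than every knockout array. The difference was 0.21 (SE 0.09, 95% interval 0.01 to 0.41), with an adjusted p of 0.441 by limma.

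Ada, which turns adenosine into inosine, read 7.35, 7.69 and 7.43 in the knockout arrays, against 7.80, 7.32 and 7.39 in the wild type. Both the highest and the lowest of the 6 arrays were wild type. The difference was -0.01 (SE 0.15), and its 95% interval of -0.36 to 0.34 leaves room for a change of about this size in either direction. Dpp4 behaved likewise by its brighter probe set (1416697_at), which read 8.58, 8.61 and 8.29 in the knockout arrays, against 8.62, 8.41 and 8.49 in the wild type (95% interval of the difference -0.26 to 0.24). The signs of both differences turned with quantile normalization, which gave 0.004 for Ada and 0.01 for Dpp4. A dimmer Dpp4 probe set (1441342_at), near the lower quartile of the arrays, read 4.69, 4.25 and 4.51 in the knockout arrays, against 4.85, 4.64 and 4.68 in the wild type. Its difference of -0.24 (SE 0.12) had an adjusted p of 0.565 by limma and was -0.12 without knockout replicate 2, and the genotypes overlapped through knockout replicate 1.

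Adk, which returns adenosine to AMP inside the cell, was measured by 4 probe sets with differences from -0.05 to 0.07, each with a 95% interval that includes 0. The brightest (1438292_x_at), whose suffix marks probes that can bind other transcripts, read 10.02, 9.96 and 9.82 in the knockout arrays, against 10.13, 10.01 and 9.74 in the wild type. The next (1416319_at) read 8.48, 8.44 and 8.04 in the knockout arrays, against 8.56, 8.40 and 8.15 in the wild type. In both genotypes replicate 1 read highest and replicate 3 lowest on each of these probe sets, and the genotypes overlapped. Of the 2 dim probe sets, 1449641_at ranged from 4.28 to 4.82 and overlapped. The other, 1421767_at, read 4.94 to 4.99 in the knockout arrays and 4.87 to 4.93 in the wild type, and its genotypes were separated by 0.01. Its difference was 0.07 (SE 0.06, adjusted p = 0.756 by limma).

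P2rx7, the ATP-gated channel, read 5.36, 5.43 and 5.47 in the knockout arrays, against 5.13, 4.98 and 5.43 in the wild type (1422218_at). The knockout arrays lay close together (SD 0.06, n = 3) and the wild-type arrays spread more (SD 0.23, n = 3), with wild-type replicate 3 level with knockout replicate 2. The difference was 0.24 (SE 0.12, 95% interval -0.04 to 0.52, adjusted p = 0.545 by limma), and leaving out 1 array gave 0.14 (without wild-type replicate 2) to 0.36 (without wild-type replicate 3). The level is low on these arrays, where RMA compresses differences.

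**Figure D2:**
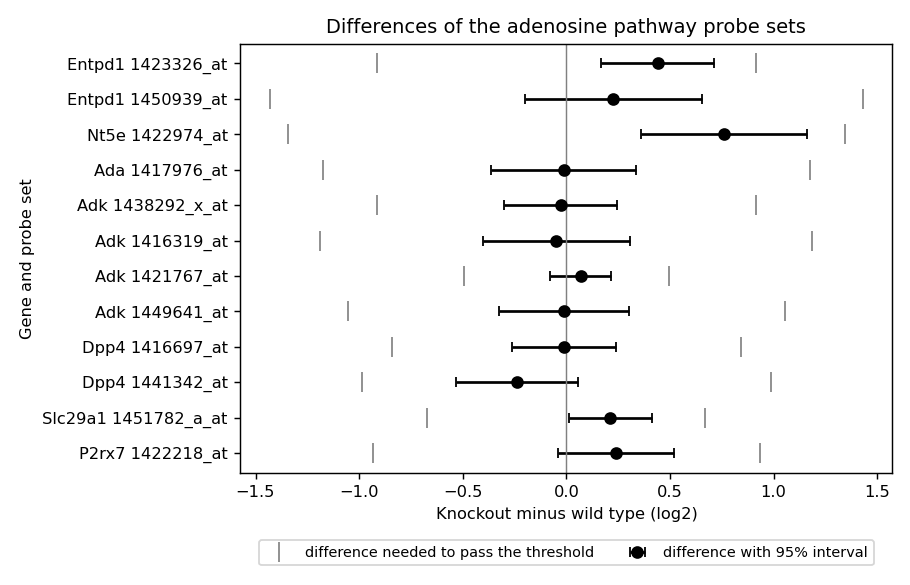
Knockout minus wild type (log2, x axis) for each probe set (y axis): points are limma's differences, bars their 95% intervals from 6 arrays, and grey ticks the size that would have passed the threshold given that probe set's spread. The intervals of Nt5e, the brighter Entpd1 probe set and Slc29a1 lie above 0, and every point lies inside its grey ticks.

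Counted by the brightest probe set of each gene, 4 of the 7 measured members were higher and 3 lower in the knockout, with a median difference of 0.21, beside 50.7% higher and a median of 0.00 over all 12393 genes. The genotypes did not overlap for 2 of the 7 (28.6%), both higher in the knockout, against 18.6% of all genes in either direction and 8.28% in this one. Over probe sets it was 3 of 12 (25%) against 17.2%. Shares of so few members are not read as a result beside that background.

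The other genes of the pathway were read from lists that follow the same route. Of 75 listed pathway genes with a probe set of their own, Casp1 was the 1 that passed the threshold in limma's test, and 9 (12%) had an unadjusted p under 0.05, near the 11.2% of all genes. ATP leaves cells through channels and vesicles. All 5 measured release genes, of 8 listed, were higher in the knockout by 0.04 to 0.23 (median 0.10). Over all genes 50.7% were higher, and none of the 5 passed the threshold. The genotypes did not overlap for 1 of the 5 (20%), near the 18.6% of all genes. Panx1, which forms the pannexin channel that lets ATP out of T cells, read 9.45, 9.35 and 9.40 in the knockout arrays, against 9.18, 9.12 and 9.21 in the wild type. Its genotypes did not overlap, and the difference of 0.23 (SE 0.07) had an adjusted p of 0.300 by limma. Slc17a9, the vesicular nucleotide transporter, was at 0.11, and the connexin gene Gja1 was at 0.10 with a level under the lower quartile.

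Of 11 other P2 receptors for extracellular nucleotides 6 were higher and 5 lower, with a median of 0.01 and none past the threshold. P2rx4, another ATP-gated channel, had the smallest p. It read 7.63, 7.76 and 7.85 in the knockout arrays, against 7.57, 7.49 and 7.58 in the wild type, without overlap, and differed by 0.20 (SE 0.08, adjusted p = 0.447 by limma). P2rx5 was at 0.18 and the ATP and UTP receptor P2ry2 at 0.14, both with overlapping genotypes. Of 16 other nucleotide ectoenzymes and related enzymes listed, not all of them at the cell surface, 8 were measured. Of these 3 were higher and 5 lower, from -0.12 to 0.17, and none was without overlap. They included Entpd2, a CD39 relative that cuts mainly ATP (0.17), the phosphatase Acpp (-0.12) and Enpp3 (0.11). None of these 8 differed by as much as Nt5e or the brighter Entpd1 probe set. Of 4 other nucleoside transporters 2 were higher and 2 lower, with the concentrative transporter Slc28a3 at 0.25 and Slc29a4 at -0.24, both near the lower quartile, and the lysosomal Slc29a3 at -0.06.

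Inside the cell, 8 of 22 genes of AMP, adenosine and purine salvage were higher and 14 lower (median -0.01), none past the threshold. The genotypes did not overlap for 5 of the 22 (22.7%), near the 18.6% of all genes. Xdh, whose product oxidizes hypoxanthine and xanthine to urate, read 7.64, 7.76 and 7.60 in the knockout arrays, against 7.56, 7.17 and 7.11 in the wild type. The genotypes did not overlap, and they differed by 0.39 (SE 0.13, adjusted p = 0.349 by limma). Nt5c, a nucleotidase of the cytosol, was at -0.19 (SE 0.08) and Adsl, an enzyme of AMP synthesis, at -0.17 (SE 0.07), both without overlap. Pnp, which splits inosine after adenosine deamination, was at 0.03, and Ahcy, which releases adenosine from S-adenosylhomocysteine, at 0.00.

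In the cAMP arm, through which A2 receptors signal, 9 of 19 genes were higher and 10 lower (median -0.03), none past the threshold. Adcy6, an adenylyl cyclase, had the smallest p of the list by brightest probe set and was lower. It read 7.28, 7.61 and 7.54 in the knockout arrays, against 7.77, 7.94 and 8.23 in the wild type, without overlap, a difference of -0.50 (SE 0.14, adjusted p = 0.261 by limma). Crem, a cAMP-responsive transcription factor, read 7.25, 7.08 and 6.995 in the knockout arrays, against 6.78, 6.90 and 6.82 in the wild type, again without overlap, at 0.28 (SE 0.09, adjusted p = 0.324 by limma). Gna13, a G protein subunit other than the stimulatory Gnas, was at 0.41 (SE 0.13) by its brightest probe set. Its other probe sets ranged from -0.01 to 0.42, all with overlapping genotypes. The stimulatory G protein gene Gnas read 12.48 to 12.57 in all 6 arrays, and the adenylyl cyclase Adcy7 was at -0.03.

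Of 6 genes that act after P2X7 opening 3 were higher and 3 lower. Casp1, the inflammasome protease, rose. It read 8.81, 8.70 and 8.63 in the knockout arrays, against 7.86, 7.87 and 7.91 in the wild type, higher by 0.83 (SE 0.07, adjusted p = 0.0128 by limma). The inflammasome partners Pycard (0.00) and Nlrp3 (-0.04), the shedding protease Adam17 (-0.09) and the cytokine Il1b (0.14) overlapped between genotypes.

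**Figure D3:**
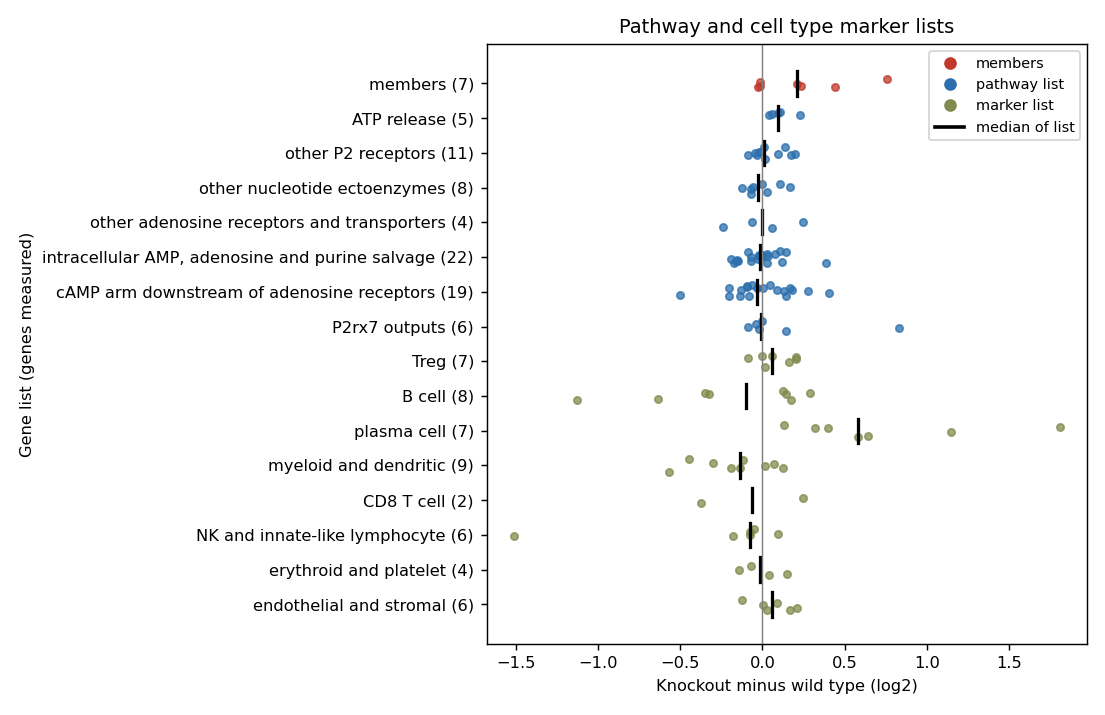
Knockout minus wild type (log2, x axis) of each gene's brightest probe set, 1 point per gene, for the members (red), the pathway lists (blue) and the cell type marker lists (green), with list medians as black bars and the number of genes measured in parentheses. Nt5e at 0.76 and Casp1 at 0.83 stand at the upper end of the pathway genes, and the plasma cell markers have the highest median (0.58).

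Markers of antibody-secreting cells were higher in the knockout preparations beside the ectoenzymes. All 7 measured plasma cell markers were higher (median 0.58), and for 5 of them (71.4%) the genotypes did not overlap, against 8.28% of all genes in this direction. The list was chosen with earlier results of these data known, so this share describes the list and is not a test. Of the 7, 1 passed the threshold: Igha rose by 1.81 (SE 0.14, adjusted p = 0.00799 by limma) by its brightest probe set. Its other probe sets were at 2.28 and 2.79. The summed linear level of the 7 markers was 35404 to 38862 in the knockout and 14226 to 19230 in the wild type. Without Igha it was 15647 to 17849 and 9600 to 12573, and most of that was Jchain (mean level 13.35). B cell markers summed to 1164 to 1696 in the knockout and 1540 to 2063 in the wild type, with 4 of 8 higher. The B cell marker Ms4a1 (CD20) was lower in every knockout array, at -1.13 (SE 0.29, adjusted p = 0.236 by limma), and its other probe set was at -1.18. Within the knockout, Nt5e and both Entpd1 probe sets read highest in replicate 1. The plasma cell markers Igha, Jchain, Xbp1, Tnfrsf17 and Sdc1 read highest in knockout replicate 3, where Nt5e and the brighter Entpd1 probe set were lowest. Igha ranged only from 14.27 to 14.36 across the knockout arrays. The remaining Irf4 and Prdm1 read highest in knockout replicate 1. Within the wild type the order differed: Igha, Jchain, Tnfrsf17 and Sdc1 read highest in replicate 3, as did Nt5e and both Entpd1 probe sets. Xbp1 read highest in wild-type replicate 2, and Irf4 and Prdm1 in wild-type replicate 1. In a bulk preparation more cells of a type and more RNA per cell cannot be told apart, and the part of plasma cells in the ectoenzyme values was not tested.

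The other 6 lists of cell type markers gave 0 of 35 genes past the threshold of limma's test, and 6 (17.1%) had an unadjusted p under 0.05, against 11.2% of all genes. Myeloid and dendritic markers summed to 886 to 1127 in the knockout and 1075 to 1372 in the wild type, with 3 of 9 higher. Natural killer and innate-like markers summed to 1653 to 1918 and 1657 to 2195, with 1 of 6 higher. The largest part of the myeloid sum was H2-Eb1 (mean level 9.18), and that of the natural killer sum was Gata3 (mean level 9.94). These sums therefore follow mainly 1 gene each and are not read as amounts of cells. Zbtb16, a factor of innate-like T cells, was at -1.51 (SE 0.28, adjusted p = 0.117 by limma). Its other probe set was at -0.40 with overlapping genotypes. Endothelial and stromal markers, of cells that also carry CD73 and CD39, summed to 386 to 416 and 400 to 466. Most of that sum was Pecam1 (mean level 8.25), and 3 of the 6 genes lay under the lower quartile. It says little about the amount of such cells. Erythroid and platelet markers summed to 150 to 213 and 160 to 173, mostly through Itga2b (mean level 6.96). The pair of CD8 genes went opposite ways (Cd8b1 -0.37, Cd8a 0.25).

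The probe sets most like Nt5e were sought by the root mean square difference over the 6 arrays after each was centred on its own mean. The 5 nearest of other genes were Fhdc1 (0.06), Socs3 (0.10), Usp18 (0.10), Ptger2 (0.11) and Naip2 (0.12). Fhdc1, a formin-related gene of the cytoskeleton, read 6.40, 6.15 and 5.98 in the knockout arrays, against 5.41, 4.996 and 5.51 in the wild type. Socs3 is a feedback inhibitor of cytokine signalling and Usp18 an interferon-induced protease. Ptger2, the prostaglandin E2 receptor EP2, which raises cAMP as the A2 adenosine receptors do, read 9.03, 8.74 and 8.64 in the knockout arrays, against 8.08, 7.80 and 8.03 in the wild type. Naip2 is a sensor of bacterial secretion systems. All 5 shared with Nt5e the highest value in knockout replicate 1 and the lowest in wild-type replicate 2, as the measure of likeness selects. Their differences of 0.66 to 0.87 follow from that selection, and none passed the threshold.

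**Figure D4:**
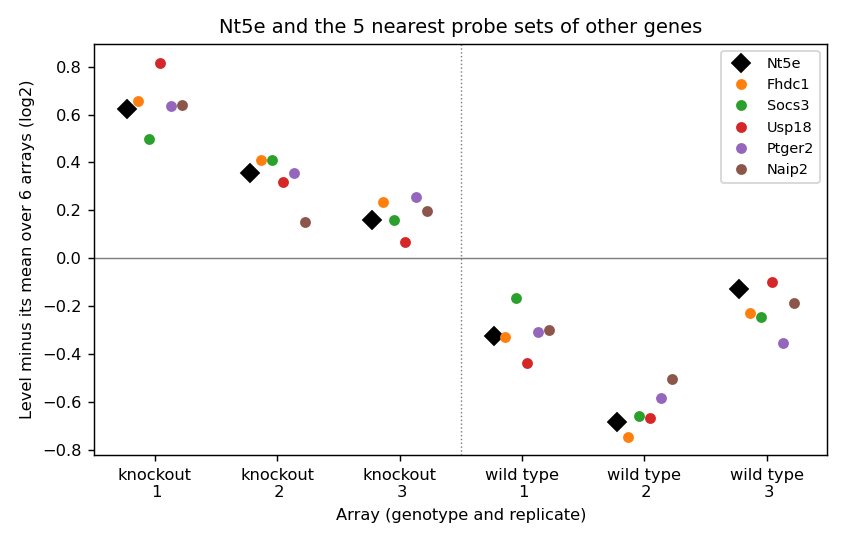
Level minus its own mean over the 6 arrays (log2, y axis) in each array (x axis) for Nt5e (black diamonds) and the 5 nearest probe sets of other genes (coloured points). All 6 probe sets are highest in knockout replicate 1 and lowest in wild-type replicate 2.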

How the data were processed

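The authors deposited 1 table of log2 values for 6 arrays, made with RMA per the submitters' processing notes, with no version given. RMA corrects background, normalizes between arrays and summarizes probes, and it compresses differences of dim probe sets. Per the labels' protocols, 100 ng of total RNA was labelled per sample. The log2 scale was taken from the range of the values, and nothing was normalized again. Of 22690 probe sets 64 controls were left out. Names came from the platform annotation, updated through gene IDs (20351 probe sets matched RefSeq, GRCm38.p6): 20380 probe sets had 1 symbol, 691 several and 1555 none.

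The test was limma's (version 3.58.1, R 4.3.3; lmFit, then eBayes) with genotype as the only term, two-sided, with Benjamini-Hochberg adjustment over the 22626 tested probe sets and a threshold of 0.05. The fit was tested on simulated data. List genes were read from their brightest probe set (the highest mean over the arrays). The named genes were the members, Hdac6, every list gene past the threshold, the 3 with the smallest p of each pathway list, and the 5 probe sets nearest to the member with the smallest p; other list and marker genes were picked as examples after their values were seen. The members, lists and motifs were chosen with earlier results of these data known. Alternatives tried were quantile normalization, a replicate block, centring on the median, array weights, trend and robust settings, 2 minimum levels, 1 probe set a gene, an unmoderated test, a threshold of 0.1 and leaving out each array. The number of arrays limits the precision (median SE 0.10). Figures were drawn with matplotlib 3.10.9.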

Additional observations from a re-analysis of the deposited data

How the results depend on the processing

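None of the member probe sets passed the threshold under any of the 16 alternatives, with limma's adjusted p from 0.0975 to 0.431 for Nt5e and from 0.119 to 0.506 for the brighter Entpd1 probe set. Nt5e, both Entpd1 probe sets, Slc29a1, P2rx7, the dimmer Dpp4 probe set and Adk 1421767_at kept their direction wherever they were tested. The sign of the others turned: quantile normalization gave 0.004 for Ada and 0.01 for Dpp4 1416697_at, and array weights gave 0.076 and 0.037. Leaving out 1 array gave -0.110 to 0.136 for Ada, -0.068 to 0.088 for Dpp4 1416697_at, -0.139 to 0.058 for Adk 1438292_x_at, -0.157 to 0.091 for Adk 1416319_at and -0.150 to 0.120 for Adk 1449641_at.

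The count of all probe sets past the threshold was 44. It was 27 with the replicate block, 147 with trend and robust settings, 86 with array weights, 21 with 1 probe set a gene (fewer were tested), 121 at a threshold of 0.1, and 0 by the unmoderated limma test, which had 2239 at an unadjusted p under 0.05. Leaving out 1 array gave 5 (without knockout replicate 2) to 51 (without wild-type replicate 3), with 20 when knockout replicate 1 was left out and 11 when wild-type replicate 2 was. The replicate numbers were not taken to pair the arrays: the deviations from the group means correlated at 0.22, -0.09 and 0.10 for numbers 1, 2 and 3, and not every array correlated best with its own number. The replicate block changed no call among the members.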
